A study of Mus musculus with 43 samples.

Results

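The genes described here are 39 interferon-stimulated genes, the set of transcripts that cells switch on after interferon binds its receptors. The list goes by gene name, and its rule uses no measured value, but the members were chosen with earlier results of these data known. Of the 39, 35 had a probe set that belongs to them alone, out of 22180 genes tested. Oas1a, Dtx3l, Gbp2 and Ifi44 had no such probe set and were not analysed here. Where a gene had several probe sets, the one with the highest mean over all arrays stood for it.

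Type I interferons bind a receptor made of the chains Ifnar1 and Ifnar2. The kinases Jak1 and Tyk2 then activate a complex that includes Stat2 and Irf9 and binds the interferon-stimulated response element (ISRE) in the promoters of these genes. Interferon gamma, the cytokine of Th1 cells, binds Ifngr1 and Ifngr2 and acts through Jak1 and Jak2 at another element, the gamma-activated site (GAS). The products block virus replication, sense foreign RNA, modify proteins and, as with Usp18, restrain the signal itself. T cells make interferon gamma and can respond to both kinds of interferon, depending on the receptor chains they carry.

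Expression was measured on 43 one-colour arrays of mouse CD4 T cells in 9 groups. All donor cells carried the transgenic AND receptor for a moth cytochrome c (MCC) peptide, were CD45.1+ and lacked Rag2, and were transferred into other mice and sorted back as CD4+CD90.2+CD45.1+ cells. The iMCC recipients carry a pair of transgenes by which doxycycline in the drinking water induces, in dendritic cells, an invariant chain with the MCC epitope in place of CLIP. They received an anti-CD40 antibody and 100 µg/ml doxycycline from the day before transfer. Doxycycline was stopped on day 3 in the none group, cut to 10 µg/ml in the low group and kept at 100 µg/ml in the int (intermediate) group. Cells of these groups were sorted on day 10 (5 none, 5 low and 4 int arrays) and on day 30 (5 arrays each). A day 30 off group (5 arrays) stayed on 100 µg/ml until day 10 and then received none. The high group (4 arrays, day 10) came from cMCC recipients, another strain, which makes the MCC construct constitutively in MHC-II+ cells and was listed without doxycycline. Naive cells (5 arrays) were sorted 3 days after transfer into non-transgenic recipients without doxycycline. Nothing in the labels ties each array to an animal of its own, and the p-values below therefore rest on sample-to-sample spread that may be partly technical. Day 10 and day 30 cells were sorted on different days after transfer, and a difference between days cannot be told apart from one between sorts. High differs from the other day 10 groups in recipient strain and in the cells that present antigen as well as in dose. It also had no doxycycline, which the other day 10 groups all received until day 3, and the anti-CD40 antibody is described only for iMCC recipients. None of these can be told apart from dose. Among none, low and int, the dose of antigen and that of doxycycline change together.

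The sort could be read in the arrays. Mean log2 signal was at least 9.12 for Cd4, at least 10.59 for Cd3e and at least 10.96 for Ptprc in every group. Rag2 lay near the floor, with group means from 2.59 to 3.05. That does not tell donor from host cells, because mature T cells of either do not express it. Naive replicates 3 and 4 stood apart from the other arrays. Their mean over 13 B cell markers was 4.96 and 4.25, and over 23 myeloid markers 4.94 and 4.41, against 3.62 to 3.93 and 3.38 to 3.90 in the other naive arrays. Isg15, a ubiquitin-like protein induced by interferon, was at 7.47 and 7.36 in those 2 arrays and at 6.34, 6.45 and 6.25 in the other 3, and Bst2 was at 7.97 and 7.87 against 6.82, 7.04 and 6.72. Oas2 went the other way, at 4.76 and 3.91 against 5.08, 5.99 and 5.25. So did Usp18, at 6.79 and 6.80 against 7.08, 7.32 and 7.18. The mean over all measured members was 6.29 and 6.28 in the pair, within the range of the other 3 naive arrays (6.08 to 6.36). Calls of members against naive cells are therefore given with and without this pair. Sorted cells were measured in bulk, so fewer cells of a type and less RNA per cell cannot be told apart.

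The response element was searched for from 250 bases before to 50 after each gene's start in RefSeq's promoter table for GRCm38.p6, which held 31 of the 39 genes. The ISRE core, searched as GAAA, any 2 bases and GAAA on either strand, stood in 17 of these 31 (54.8%), against 3.44% of all 32851 such windows. The longer form, the core followed by CT, stood in 9 of 31, against 0.271% of windows, and the GAS letters TTCNNNGAA, which read the same on both strands, in 7 of 31, against 8.30%. A gene with several windows was counted if any of them matched. Of the 38 windows of these genes, 50% held the core, 28.9% the longer form and 18.4% the GAS letters. A match is a description of the letters and not a bound site. Of the 13 members with a promoter and at least 1 call below, 9 had a core match, and of the 14 with a promoter, a measured level and no call, 6 had one. The 250 bases before the start are shown for 3 members that later results turn on, 5′ to 3′ on the gene's strand, with core matches in capitals. Ifit1 (chr19:34640639-34640888, plus strand) holds 2 core matches, Slfn8 (chr11:83020811-83021060, minus strand) holds 1, and Oasl2 (chr5:114896684-114896933, plus strand) holds none.
Ifit1: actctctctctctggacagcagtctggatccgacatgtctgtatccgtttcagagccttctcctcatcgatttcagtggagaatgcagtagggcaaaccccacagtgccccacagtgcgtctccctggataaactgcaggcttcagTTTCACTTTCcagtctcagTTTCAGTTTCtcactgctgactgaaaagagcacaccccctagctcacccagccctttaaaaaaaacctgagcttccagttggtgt
Slfn8: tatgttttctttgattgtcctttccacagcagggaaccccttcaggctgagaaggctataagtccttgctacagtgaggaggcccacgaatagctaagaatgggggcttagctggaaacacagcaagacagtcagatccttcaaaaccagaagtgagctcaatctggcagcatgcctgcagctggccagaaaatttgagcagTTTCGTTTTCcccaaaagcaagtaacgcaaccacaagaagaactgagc
Oasl2: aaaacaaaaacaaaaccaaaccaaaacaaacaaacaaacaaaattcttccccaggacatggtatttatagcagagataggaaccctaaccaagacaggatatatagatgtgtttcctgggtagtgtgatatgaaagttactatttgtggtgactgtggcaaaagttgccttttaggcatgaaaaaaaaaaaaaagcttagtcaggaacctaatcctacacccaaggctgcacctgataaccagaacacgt
The matches of Ifit1 lay 104 to 95 and 85 to 76 bases before its start, and that of Slfn8 48 to 39 bases before. From another listed start of Slfn8 the same match lay 136 to 127 bases before. For Oasl2 the lack of a match says only that these letters are not in this window.

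The mean over the 35 members moved little between groups, and the groups with the lowest and the highest mean were both sorted on day 10. Naive cells had a member mean of 6.24 ± 0.11 (SD, n = 5, log2 signal). Day 10 none cells, which had met antigen and lost it, had 6.59 ± 0.19 (n = 5), day 10 low cells 6.72 ± 0.13 (n = 5), day 10 int cells 6.32 ± 0.17 (n = 4) and day 10 high cells 6.06 ± 0.20 (n = 4). The day 10 order was low, none, int, high, from the highest mean to the lowest. On day 30 none had 6.52 ± 0.20, low 6.54 ± 0.13, int 6.39 ± 0.16 and off 6.64 ± 0.15 (n = 5 each). The 4 high arrays (5.86 to 6.31) all lay below the 5 none arrays of day 10 (6.37 to 6.82), and the 5 naive arrays (6.08 to 6.36) did so by a narrow gap. Neighbouring groups otherwise overlapped, int with none on both days and off with int on day 30 included.

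**Figure D1:**
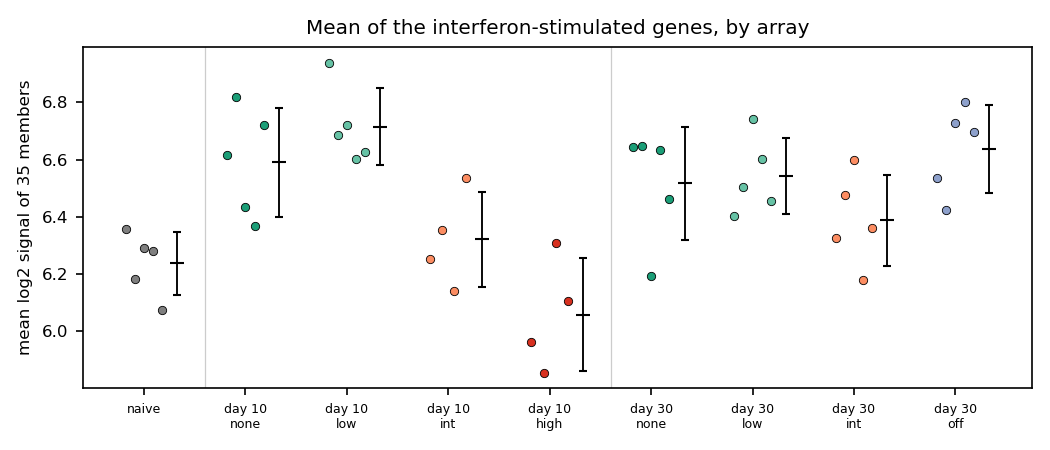
Mean log2 signal of the 35 measured interferon-stimulated genes (vertical axis) in each array, by group, with the group mean and SD beside the points. The 4 day 10 high arrays sit between 5.86 and 6.31, below all 5 day 10 none arrays.

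The mean hid unlike single genes. Oas2, an oligoadenylate synthetase, had group means from 3.80 in day 30 int to 6.16 in day 10 none, and Slfn8 from 5.38 in high to 8.18 in day 30 low. Zbp1, a sensor of Z-form nucleic acid, ranged only from 8.83 to 9.22. The group of the highest mean was day 10 low for Ifit3, Oas3, Dhx58, Irf7, Irf9, Stat2, Rsad2, Cmpk2, Rtp4, Parp9, Slfn1 and Slfn5. The lowest was high for Ifit1, Ifit2, Ifit3, Usp18, Oasl1, Zbp1, Eif2ak2, Samd9l, Parp14, Slfn5, Slfn8 and Igtp. For as many members the lowest was naive: Oas3, Ifih1, Dhx58, Irf7, Stat2, Mx1, Rsad2, Cmpk2, Trim30a, Slfn1, Gbp3 and Irgm1. Of the 35 members, 31 reached a group mean of at least 5; Oasl1, Mx1, Rsad2 and Gbp3 did not, and signals that low are compressed toward the floor of the scale.

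**Figure D2:**
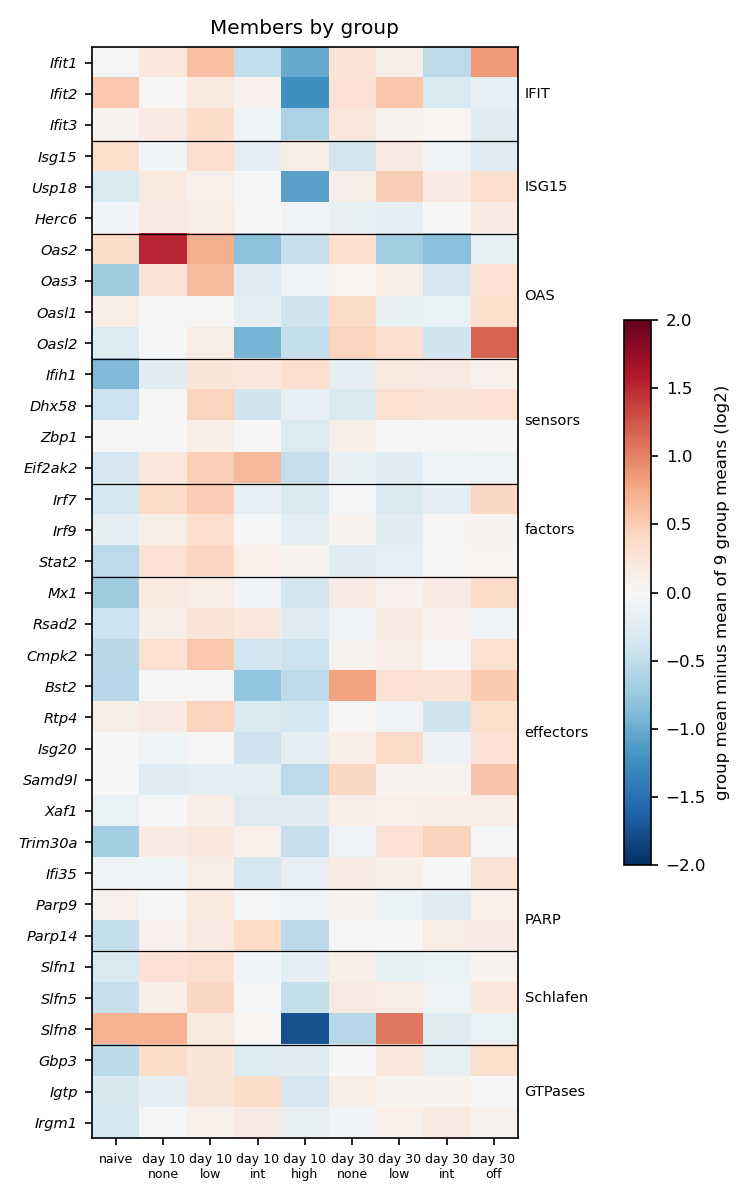
Group mean of each member minus the mean of its 9 group means, in log2 units (colour), for the 35 members in rows, ordered by role, and the 9 groups in columns. Oas2 stands out in day 10 none (group mean 6.16), Slfn8 is low in day 10 high (5.38) and high in day 30 low (8.18), and Ifit1 (7.48) and Oasl2 (5.77) are highest in day 30 off.

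Each of 12 differences between groups was tested with limma, and a gene was called at an adjusted p under 0.05 over all 22180 genes. In all, 17 members were called at least once, with 31 calls between them. Against naive cells, 5 of 35 members were higher in day 10 none (Oas2, Oas3, Mx1, Trim30a and Slfn1) and none of them lower, where 1.9% of all genes were called higher. The median difference of the members was 0.31 log2 units, beside -0.006 over all genes. In day 30 none against the same naive arrays, 5 were higher (Ifih1, Mx1, Bst2, Slfn1 and Slfn5) and 1, Slfn8, was lower, where 1.98% of all genes were called higher and 2.35% lower. Both comparisons use the same 5 naive arrays. Naive cells also differ from none cells in recipient strain, day of sort and doxycycline, and the anti-CD40 antibody is described only for iMCC recipients. These cannot be told apart from past antigen. Leaving out 1 array moved the day 10 count to 3 without none replicate 1 and to 12 without none replicate 4, and the day 30 count to 3 without naive replicate 3 or 5. Without naive replicates 3 and 4, 2 calls were left on day 10 (Oas3 and Slfn1) and 3 on day 30 (Mx1, Bst2 and Slfn8). Of all 22180 genes, 337 and 594 were then called, beside 733 and 961 with all arrays. Markers of other cells moved with this contrast: the mean over the B cell markers was 3.62 to 4.96 in naive arrays and 3.53 to 3.67 in day 10 none arrays, and over the myeloid markers 3.38 to 4.94 and 3.38 to 3.77. Their part in these results was not tested beyond leaving out the pair.

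On day 10 the cells of the high group had lower signal of many members than none cells. In high against none, 7 of 35 members were lower (Ifit1, Ifit2, Usp18, Oas2, Parp14, Slfn1 and Slfn8) and none higher, where 2.48% of all genes were called lower. The differences of 33 of the 35 members were negative (94.3%), beside 47.3% of all genes, with a median of -0.45 for the members and 0.014 for all genes. Without none replicate 4, 12 members were called lower, Cmpk2, Eif2ak2, Ifit3, Slfn5 and Trim30a in addition. In int against none, only Oas2 was called, lower, 1 of 35, where 0.46% of all genes were called lower. The differences of 26 of 35 were negative (74.3%), beside 52.4% of all genes, with a median of -0.23 beside -0.010. In low against none no member was called by limma, where 0.00451% of all genes were, and 3 of 35 members had an unadjusted p under 0.05, beside 3.43% of all genes. All 3 comparisons share the 5 none arrays. High against int leaves out the none arrays but uses the same high and int arrays as the comparisons above, so it is not independent of them. In it 5 members were lower (Usp18, Eif2ak2, Parp14, Slfn8 and Igtp) and none higher, where 1.59% of all genes were called lower. In the high arrays Thy1, the CD90 surface protein used in the sort, was also lower than in none, with a difference of -1.07 ± 0.12 (adjusted p = 4.19e-09). Klrb1c, an NK cell marker, was higher in high than in none by 1.60 ± 0.29 (adjusted p = 0.000141). The mean over 6 measured markers of NK cells, CD8 T cells or gamma-delta T cells was 3.45 to 3.79 in high arrays and 3.22 to 3.53 in none arrays. Klrb1c is in this list, and no other marker of it was called in high against none. The part of such cells in the differences of high was not tested.

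**Figure D3:**
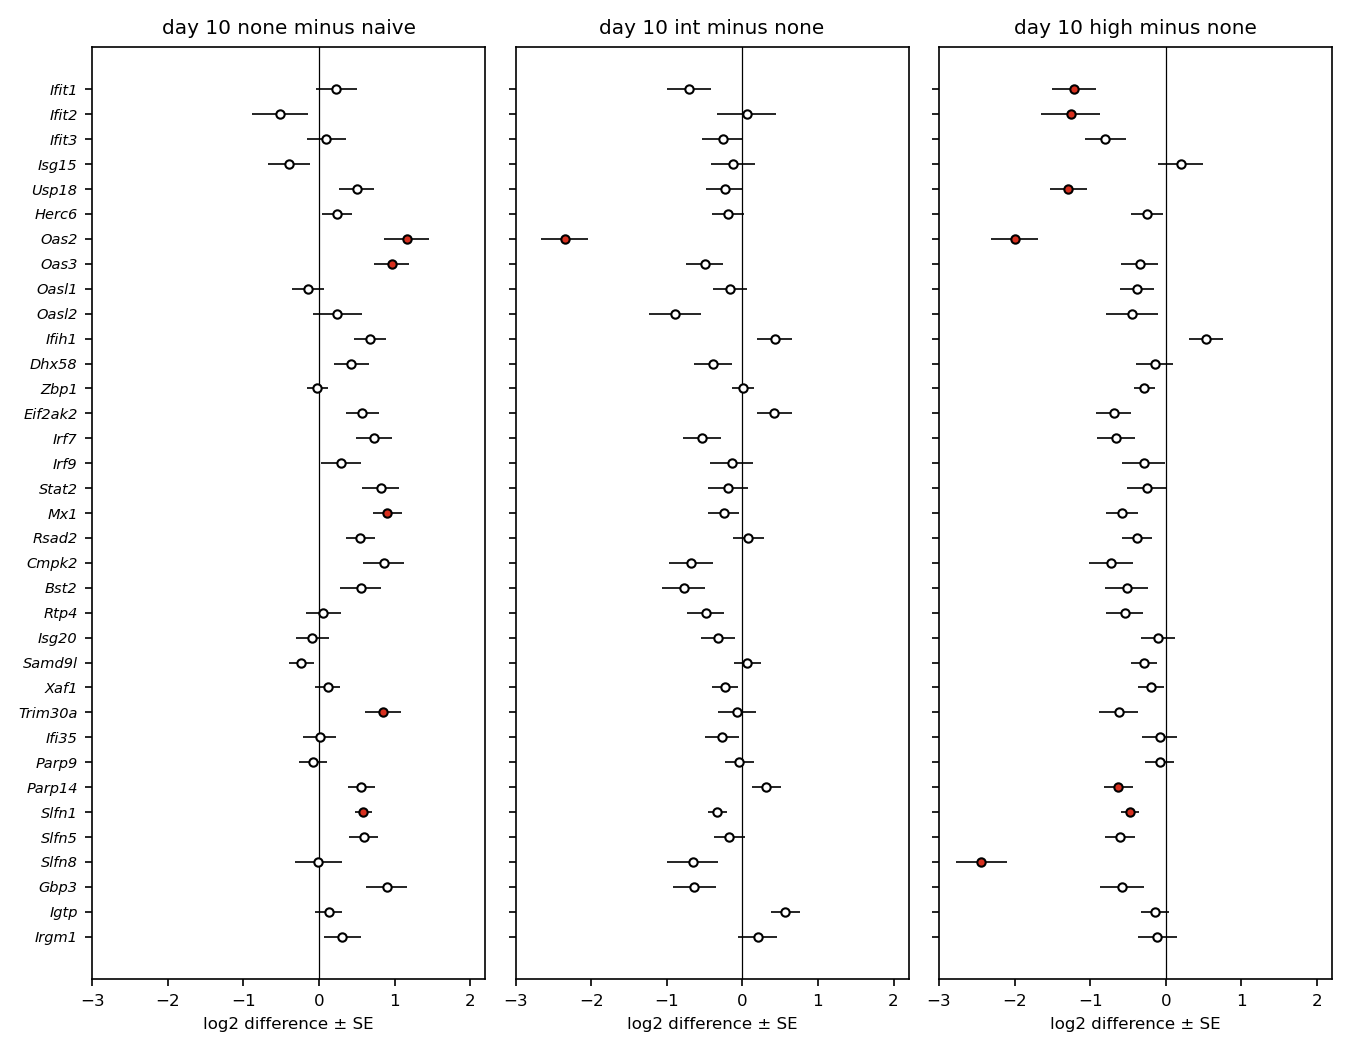
Log2 difference with its standard error (horizontal axis) of each of the 35 members in 3 comparisons on day 10: none minus naive, int minus none and high minus none. Filled red points were called at an adjusted p under 0.05: 5 in the first panel, all higher, 1 in the second (Oas2, lower) and 7 in the third, all lower.

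On day 30 Slfn8, Oas2, Ifit1 and Oasl2 were the members called in a comparison of antigen groups. In low against none 1 member, Slfn8, was higher, where 0.388% of all genes were called higher. In int against none 1 member, Oas2, was lower, where 0.794% were called lower. In off against none limma called no member, where 0.266% of all genes were called, and 3 of 35 had an unadjusted p under 0.05, beside 11.1% of all genes. In off against int, which compares withdrawal of antigen on day 10 with its presence until day 30, Ifit1 and Oasl2 were higher, 2 of 35, where 0.266% of all genes were called higher. The differences of 25 of 35 members were positive, with a median of 0.18 beside 0 over all genes. Negative differences made up 25.7% of the members, beside 49.9% of all genes. Off against none had the same 25.7% of members negative, beside 51.1% of all genes. The comparisons with none share its 5 arrays, and both comparisons of int share the int arrays. The mean over the 23 myeloid markers was 3.61 to 3.83 in off arrays, 3.34 to 3.55 in int arrays and 3.07 to 3.37 in none arrays, and 1 of the 23 (Tyrobp) was called higher in off than in int. S100a8, a neutrophil transcript, had a group mean of 6.90 in off, 5.29 in int and 3.46 in none. Against none, S100a8 (3.44, adjusted p = 0.0365) and S100a9 (2.87, adjusted p = 0.0458) were called higher in off. The mean over the 13 B cell markers was 3.74 to 3.94 in low arrays, 3.73 to 3.83 in off arrays and 3.60 to 3.68 in none arrays. Of these markers only Cd22 was called against none in low (2.35 higher, adjusted p = 4.93e-05) and in off (1.67 higher, adjusted p = 0.0137). The part of myeloid or B cells in the low and off values was not tested.

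Between the days, none cells had 1 member higher on day 30, Samd9l, and 2 lower, Oas2 and Slfn8, where 1.51% of all genes were called higher and 1.93% lower. Without day 10 none replicate 1 or day 30 none replicate 2, 1 of these 3 calls was left. Of the myeloid markers, S100a8 (-3.12, adjusted p = 0.0191) and S100a9 (-2.86, adjusted p = 0.0117) were also called lower in none on day 30. The part of such cells in the differences between the days was not tested. In int cells limma called no member between the days, where 0.712% of all genes were called, and 4 of 35 had an unadjusted p under 0.05, beside 11.4% of all genes. Bst2, which encodes tetherin, came nearest, at 1.06 higher on day 30 (adjusted p = 0.0605), and was called without day 10 int replicate 2 (adjusted p = 0.0370) or day 30 int replicate 4 (adjusted p = 0.0328). The change of the int effect with day and the change of the low effect with day were tested as interactions. Neither called a member in limma, where 0.0902% and 0.0316% of all genes were called, and 4 and 2 of 35 members had an unadjusted p under 0.05, beside 6.70% and 5.45% of all genes.

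The oligoadenylate synthetases make the short RNA that activates RNase L. Oas2 was called in 5 of the 12 comparisons, as often as Slfn8. Its log2 signal on day 10 was 6.53, 6.40, 5.86, 5.71 and 6.29 in none, 5.57, 5.21, 5.44, 4.91 and 5.64 in low, 4.15, 3.55, 4.08 and 3.45 in int, and 3.55, 4.38, 4.02 and 4.70 in high. The 5 none arrays were the highest, the 5 low arrays lay between, below every none array, and int and high overlapped at the bottom. Int minus none was -2.35 ± 0.31 (SE, 5.10-fold lower, adjusted p = 2.58e-06) and high was 3.99-fold lower than none (SE of the log2 difference 0.31, adjusted p = 1.27e-05). Both were called without any 1 array. The int values come near the array medians (3.28 to 3.44), where signal is compressed, so these folds may understate the difference. Low minus none, -0.80, was not called.

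On day 30 Oas2 was at 5.27, 5.51, 4.37, 4.35 and 5.20 in none, 3.87, 4.40, 4.44, 3.61 and 3.40 in low, 3.69, 4.10, 4.27, 2.99 and 3.94 in int, and 4.39, 4.17, 4.68, 3.98 and 5.18 in off. All 5 int arrays were below the none arrays, while low and off overlapped none. Int minus none was -1.14 ± 0.29 (adjusted p = 0.0224). This call ended without int replicate 1 or 4 or without none replicate 1, 2 or 5 (adjusted p up to 0.109), and when the fit held only these groups (adjusted p = 0.0599). Low minus none was -1.00 and not called (adjusted p = 0.105). Day 30 none minus day 10 none was -1.22 ± 0.29 (adjusted p = 0.0146), with no overlap. The change of the int effect between the days, 1.21, was not called (adjusted p = 0.550).

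In naive cells Oas2 spread from 3.91 to 5.99, and day 10 none was higher by 1.16 ± 0.29 (adjusted p = 0.0143). That call ended without none replicate 1 (adjusted p = 0.0566), without naive replicate 4 (0.108) and without naive replicates 3 and 4 together (0.72 higher, adjusted p = 0.461). Oas3, another of these synthetases, was more even. Its values were 4.87, 4.94, 5.28, 4.75 and 4.62 in naive arrays and 6.07, 6.27, 5.52, 5.71 and 5.70 in day 10 none arrays, without overlap. The difference was 0.96 ± 0.23 (adjusted p = 0.00829), and 1.04 without the naive pair (adjusted p = 0.0270).

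Oasl2, an OAS-like protein, was highest in off. Its values were 5.76, 4.61, 6.46, 6.36 and 5.64 in off, against 3.83, 5.32, 3.97, 3.55 and 4.36 in int and 5.02, 5.36, 4.28, 5.03 and 5.54 in none on day 30. Int replicate 2 lay within the range of off, and off replicate 2 within that of int; the other 4 off arrays were above all int arrays. Off minus int was 1.56 ± 0.32 (2.95-fold, adjusted p = 0.00878). The call ended without off replicate 3 (adjusted p = 0.0537) or off replicate 4 (adjusted p = 0.0514). Oasl1, its relative, was not called in any comparison, with group means from 3.91 to 4.68.

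**Figure D4:**
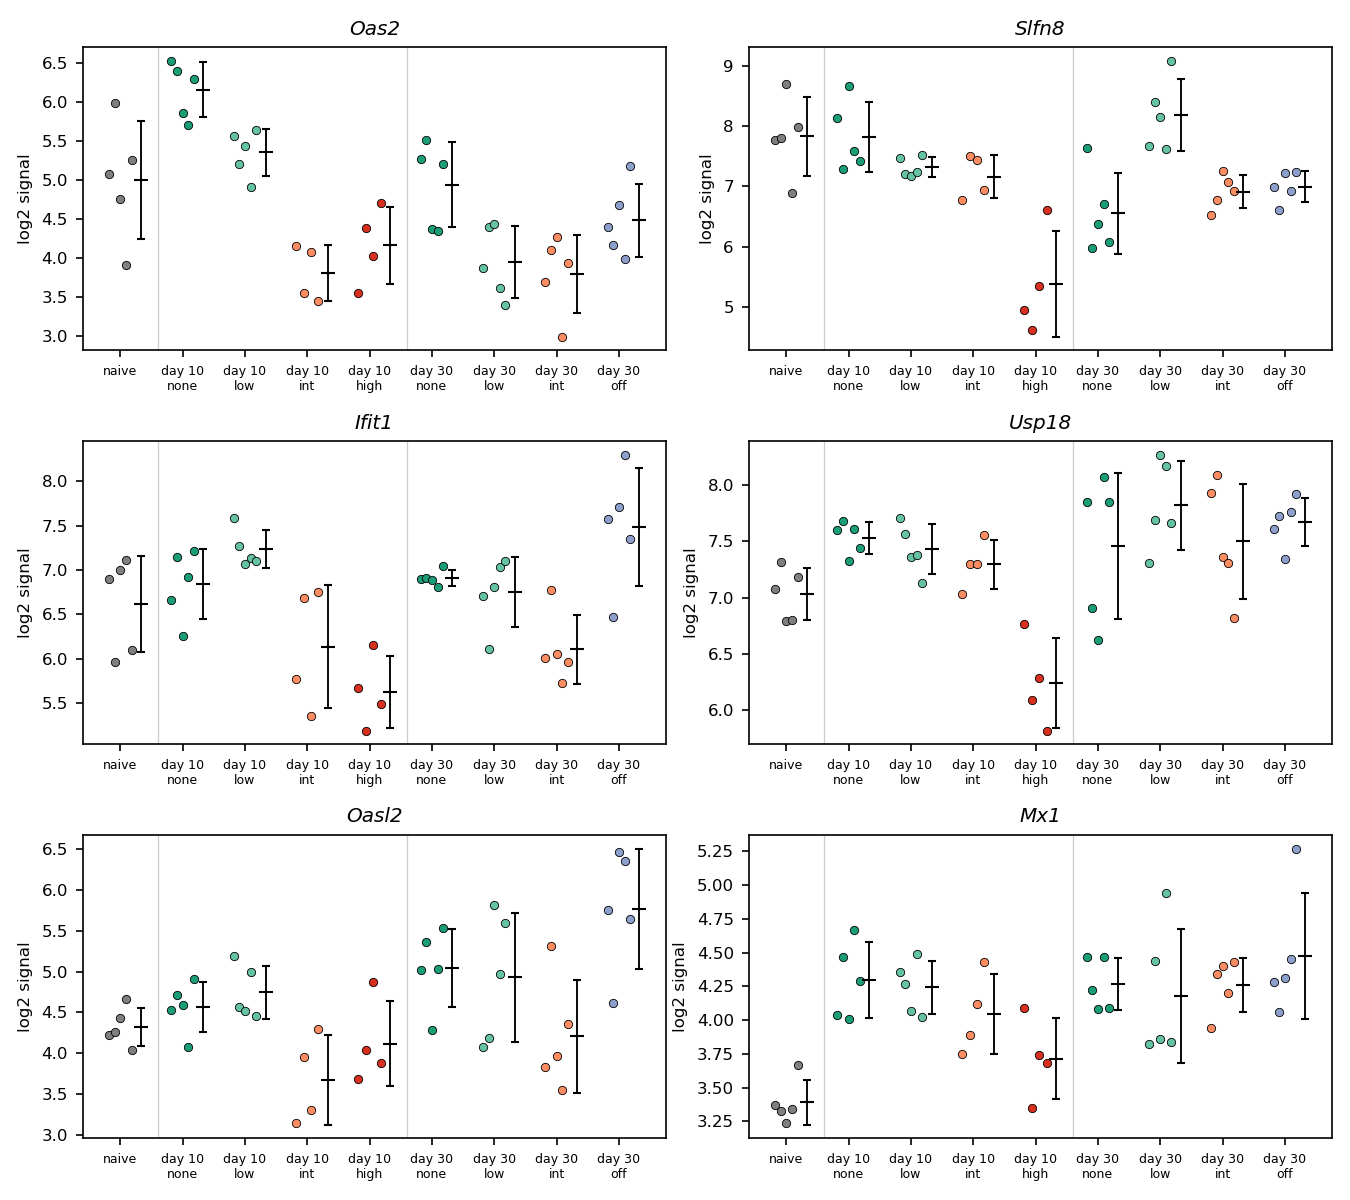
Log2 signal (vertical axes) of Oas2, Slfn8, Ifit1, Usp18, Oasl2 and Mx1 in each of the 43 arrays, by group, with the group mean and SD beside the points. Oas2 has its highest group mean in day 10 none (6.16), Slfn8 and Usp18 are lowest in day 10 high, Ifit1 and Oasl2 are highest in day 30 off, and the 5 naive arrays are the lowest group for Mx1.

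The IFIT proteins bind foreign RNA and hinder its translation. Ifit1 on day 30 was lowest in int and highest in off. It was at 6.01, 6.77, 6.05, 5.73 and 5.96 in int, at 7.58, 6.47, 7.71, 8.30 and 7.35 in off, and at 6.90, 6.91, 6.89, 6.81 and 7.05 in none. Only off replicate 2 lay within the int range, and every int array was below every none array. Off minus int was 1.38 ± 0.27 (2.60-fold, adjusted p = 0.00554), called without any 1 array but not when the fit held only these groups (adjusted p = 0.0866). Int minus none, -0.81, was not called.

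On day 10 Ifit1 was at 5.67, 5.19, 6.15 and 5.49 in high and at 6.66, 7.15, 6.26, 6.92 and 7.22 in none, without overlap. High minus none was -1.22 ± 0.29 (2.32-fold lower, adjusted p = 0.00537), called without any 1 array. Int arrays (5.77, 6.68, 5.35 and 6.75) spread over both ranges. Ifit2 was at 3.05, 4.85, 4.69 and 4.56 in high and between 4.42 and 6.18 in none, where replicate 4 was the lowest. Its difference, -1.26 ± 0.39 (adjusted p = 0.0463), was no longer called without high replicate 2 or 4 or none replicate 1, 2, 3 or 5 (adjusted p = 0.0509 to 0.297). Ifit3 was -0.80 in the same comparison and not called (adjusted p = 0.0778). Ifit1 and Ifit3 have near-identical neighbours in the same gene cluster, so how much of their signal is theirs alone is uncertain.

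The ISG15 system attaches a small ubiquitin-like protein to others; Herc6 is a ligase for it in mice, and Usp18 removes it and blocks the receptor chain Ifnar2. Usp18 was at 6.77, 6.09, 6.29 and 5.82 in high, against 7.60, 7.68, 7.33, 7.61 and 7.44 in day 10 none and 7.03, 7.30, 7.30 and 7.56 in int. All 4 high arrays lay below all arrays of none and int. High minus none was -1.29 ± 0.24 (2.44-fold lower, adjusted p = 0.000287) and high minus int was -1.06 ± 0.26 (2.08-fold lower, adjusted p = 0.0101), each called without any 1 array. Isg15 and Herc6 were not called in any comparison. Isg15 in high minus none was 0.20, 1 of only 2 positive differences among the members there. The other was Ifih1, at 0.54.

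Among the sensors of foreign RNA and DNA, Eif2ak2, the kinase PKR that stops translation, was at 6.06, 6.12, 6.15 and 6.73 in int and at 4.90, 4.84, 5.43 and 5.46 in high, without overlap. High minus int was -1.11 ± 0.24 (2.15-fold lower, adjusted p = 0.00349), called without any 1 array. Ifih1, the sensor MDA5 of long double-stranded RNA, was higher in day 30 none than in naive cells by 0.70 ± 0.21 (adjusted p = 0.0479). That call ended without naive replicate 2, 3 or 5 or day 30 none replicate 3, 4 or 5 (adjusted p = 0.0550 to 0.201), and without the naive pair (adjusted p = 0.0611). Ifih1 ranged from 6.33 in naive to 7.54 in high. Dhx58, a partner of the RNA sensors, and Zbp1 were not called.

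Of the transcription factors, Irf7 amplifies type I interferon production, and Stat2 and Irf9 are parts of the complex that binds the ISRE. None of the 3 was called in any comparison. Stat2 came nearest in day 10 none minus naive. It was at 6.53, 6.60, 6.0, 6.08 and 6.77 in none and at 5.72, 5.79, 5.21, 5.81 and 5.38 in naive arrays, without overlap. The difference of 0.81 was not called (adjusted p = 0.0622), nor that of 0.77 without the naive pair (adjusted p = 0.307). Irf7 had its lowest group mean in naive cells (6.23) and its highest in day 10 low (7.10). Irf9 moved least, between 6.68 and 7.23.

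Among 10 measured effectors, Mx1, a GTPase that traps viral nucleoproteins, was lower in naive cells than in both none groups. It was at 3.37, 3.33, 3.24, 3.34 and 3.67 in naive arrays and at 4.04, 4.47, 4.01, 4.67 and 4.29 in day 10 none and 4.47, 4.22, 4.08, 4.47 and 4.09 in day 30 none. The groups did not overlap, although all these signals are near the floor. The differences were 0.91 ± 0.20 (adjusted p = 0.00304) and 0.88 ± 0.20 (adjusted p = 0.00440). Without the naive pair they were 0.84 (adjusted p = 0.0527, not called) and 0.81 (adjusted p = 0.0461).

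Bst2, which tethers budding virus to the cell, was at 9.04, 9.17, 8.56, 8.29 and 8.24 in day 30 none and at 6.82, 7.04, 7.97, 7.87 and 6.72 in naive arrays. The difference was 1.38 ± 0.27 (2.60-fold, adjusted p = 0.000889), and 1.80 without naive replicates 3 and 4 (adjusted p = 6.01e-05). Samd9l, a restriction factor that also limits cell growth, was at 6.79, 6.97, 6.62, 6.50 and 6.18 in day 30 none and at 5.85, 6.21, 5.87, 5.98 and 5.86 in day 10 none, with 1 array of overlap. The difference of 0.66 ± 0.16 (adjusted p = 0.0181) was not called without day 10 none replicate 1 (adjusted p = 0.0515) or day 30 none replicate 2 (adjusted p = 0.0579).

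Trim30a, a ubiquitin ligase that dampens innate signalling and has close paralogues, was higher in day 10 none than in naive cells by 0.85 ± 0.24 (adjusted p = 0.0348). The call ended without none replicate 1, 2 or 5 or naive replicate 2, 3, 4 or 5 (adjusted p = 0.0517 to 0.171). The other 6 effectors, Rsad2 (viperin), Cmpk2, Rtp4, Isg20, Xaf1 and Ifi35, had no call in any comparison. In high minus none all 10 effector differences were negative, with a median of -0.45 and no call.

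Parp14, an ADP-ribosyltransferase of antiviral and cytokine responses, was at 8.60, 8.32, 8.20 and 8.24 in int, at 6.67, 7.40, 7.47 and 8.04 in high and at 8.17, 8.35, 8.07, 7.65 and 7.87 in day 10 none. Int lay above all high arrays. High minus int was -0.94 ± 0.20 (1.93-fold lower, adjusted p = 0.00274), called without any 1 array. High minus none was -0.63 ± 0.19 (adjusted p = 0.0435) and was not called without high replicate 2, 3 or 4 or none replicate 1, 2 or 3 (adjusted p = 0.0722 to 0.323). Parp9, its partner enzyme, was not called, with group means between 6.78 and 7.20.

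The Schlafen genes are regulators of lymphocyte growth and quiescence. Slfn8 was at 8.13, 7.28, 8.67, 7.59 and 7.42 in day 10 none, 6.77, 7.50, 7.43 and 6.94 in int, and 4.95, 4.62, 5.34 and 6.61 in high. All high arrays lay below both other groups, high replicate 5 by the narrowest gap. High minus none was -2.44 ± 0.33 (5.42-fold lower, adjusted p = 1.02e-06) and high minus int was -1.78 ± 0.35 (3.43-fold lower, adjusted p = 0.000979), each called without any 1 array. The first was the largest difference of any member in the 12 comparisons. Its probe set may also read the near-identical Slfn9 and Slfn10.

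On day 30 Slfn8 was higher in low than in none. It was at 7.63, 5.97, 6.37, 6.71 and 6.08 in none, 7.66, 8.39, 8.15, 7.62 and 9.08 in low, 6.53, 6.78, 7.26, 7.07 and 6.92 in int and 6.98, 6.60, 7.22, 6.92 and 7.24 in off. Only none replicate 1 reached the range of low. Low minus none was 1.63 ± 0.31 (3.09-fold higher, adjusted p = 0.00344), called without any 1 array, while on day 10 the same difference was -0.50 and not called. The change of the low effect between the days was 2.13 ± 0.44, just outside the threshold (adjusted p = 0.0566). It was called under 7 of 10 other settings and without day 10 none replicate 2 or 5, day 30 low replicate 1 or 4 or day 30 none replicate 1 (adjusted p = 0.00627 to 0.0491).

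In none cells Slfn8 was lower on day 30 than on day 10, with a difference of -1.27 ± 0.31 (adjusted p = 0.0175), and lower than in naive cells, with a difference of -1.27 ± 0.31 (adjusted p = 0.0101). The first was not called without day 10 none replicate 1 or 3 or day 30 none replicate 2 or 5 (adjusted p = 0.0518 to 0.0767), the second without naive replicate 3 (adjusted p = 0.0561). With the naive pair left out the second was -1.30 (adjusted p = 0.0260).

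Slfn1 had a high and even signal. It was at 10.14, 10.05, 10.14, 10.05 and 10.18 in day 10 none, at 9.65, 9.62, 9.37, 9.69 and 9.30 in naive and at 9.64, 9.30, 9.75 and 9.85 in high. The day 10 none arrays lay above all naive and all high arrays. The difference of none from naive was 0.59 ± 0.11 on day 10 (adjusted p = 0.000685, and 0.00687 without the naive pair) and 0.44 ± 0.11 on day 30 (adjusted p = 0.0145). The day 30 call ended without naive replicate 3 or 5 or none replicate 2 (adjusted p up to 0.0587) and without the naive pair (adjusted p = 0.0547). The difference of high from none was -0.48 ± 0.12 (adjusted p = 0.00925), and -0.37 without high replicate 3 (adjusted p = 0.106). Slfn5 was higher in day 30 none than in naive cells by 0.64 ± 0.19 (adjusted p = 0.0441). That call ended without naive replicate 2, 3 or 5 or none replicate 2 or 4 (adjusted p = 0.0798 to 0.148), and without the naive pair (adjusted p = 0.132).

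The immunity-related GTPases and guanylate-binding proteins act on the vacuoles of intracellular pathogens and respond strongly to interferon gamma. Igtp was at 9.16, 9.37, 9.26 and 9.66 in int and at 8.11, 8.66, 9.09 and 8.75 in high, without overlap. High minus int was -0.71 ± 0.20 (adjusted p = 0.0389), not called without int replicate 2, 3 or 4 or high replicate 2 or 3 (adjusted p = 0.0632 to 0.243). Gbp3 and Irgm1 were not called; Gbp3 came nearest in day 10 none minus naive, at 0.89 (adjusted p = 0.0554).

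The interferons themselves were looked at next, as a list of 9 ligand genes. Ifng was the ligand that differed most. It was at 6.23, 6.66, 6.98 and 7.18 in day 10 int and 7.42, 7.46, 7.27 and 5.77 in high, against 4.31, 5.65, 4.16, 4.17 and 4.42 in none and 2.93 to 4.05 in naive cells. All int and high arrays lay above all none arrays. Int minus none was 2.22 ± 0.36 (adjusted p = 8.73e-05) and high minus none was 2.44 ± 0.36 (adjusted p = 4.39e-06). On day 30 low was 1.69 ± 0.34 (adjusted p = 0.00524) and int 1.89 ± 0.34 (adjusted p = 0.000322) above none. These 4 calls held without any 1 array. Day 10 high, with the highest group mean of Ifng (6.98), had the lowest member mean, 6.06. Day 30 low, with Ifng at 6.67 against 4.99 in none, had a member mean of 6.54 against 6.52. A relation of Ifng to the members was not tested. Ifnb1 stayed near the floor in all groups, with group means from 2.39 to 2.74. Ifna4 was lower in high than in none, with a difference of -1.02 (adjusted p = 0.0164), a call that ended without high replicate 3 or 4 or none replicate 1, where the highest adjusted p was 0.104.

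Of the receptor chains, Ifngr1 was lower than none in int and high on day 10 and in int on day 30. In high against none 3 of 6 receptor chains were lower and none higher, where 2.48% of all genes were called lower, and in high against int 2 of 6 were lower, where 1.59% of all genes were. Ifngr1 was at 7.72, 7.54, 7.67, 7.29 and 7.88 in day 10 none, 6.29, 6.84, 5.36 and 5.78 in int and 4.99, 5.68, 5.44 and 5.39 in high. The none arrays lay above all the others. High minus none was -2.25 ± 0.33 (adjusted p = 5.44e-06), and int minus none was -1.55 ± 0.33 (adjusted p = 0.00565), lost without int replicate 3 (adjusted p = 0.0674). On day 30 it was at 8.05, 8.03, 7.67, 7.42 and 7.69 in none, 4.93, 5.33, 5.91, 4.79 and 2.99 in int and 6.15, 6.42, 7.20, 7.03 and 7.24 in off. Int minus none was -2.98 ± 0.32 (adjusted p = 1.30e-08) and off minus int was 2.02 ± 0.32 (adjusted p = 0.000196). Off arrays lay between the other groups without touching either.

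Ifnar1, a chain of the type I interferon receptor, was at 6.83, 7.23, 7.17 and 7.71 in high and at 8.49, 8.38, 8.39 and 8.26 in int, and Ifnar2 at 8.54, 9.03, 9.01 and 8.66 against 9.79, 9.67, 9.47 and 9.64. Neither pair of groups overlapped. High minus int was -1.15 ± 0.21 for Ifnar1 (adjusted p = 0.000245) and -0.83 ± 0.15 for Ifnar2 (adjusted p = 0.000375), each called without any 1 array. Against none, Ifnar1 (-0.65, adjusted p = 0.0395) and Ifnar2 (-0.48, adjusted p = 0.0406) were called, but neither call held: Ifnar1 was lost without high replicate 2, 3 or 4 or none replicate 1, 2 or 5, and Ifnar2 without high replicate 2 or 5 or none replicate 1, 2, 3 or 5 (highest adjusted p = 0.191 and 0.179). Ifngr2 was at 6.20 to 7.30 in naive arrays and at 3.53 to 3.92 in day 10 none, a difference of -2.98 ± 0.26 (adjusted p = 1.50e-11), and of -3.12 without the naive pair (adjusted p = 5.13e-10). In the groups that had met antigen its group means were all low, from 3.48 in day 10 int to 4.39 in day 30 none, against 6.72 in naive cells. Array medians were 3.28 to 3.44.

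**Figure D5:**
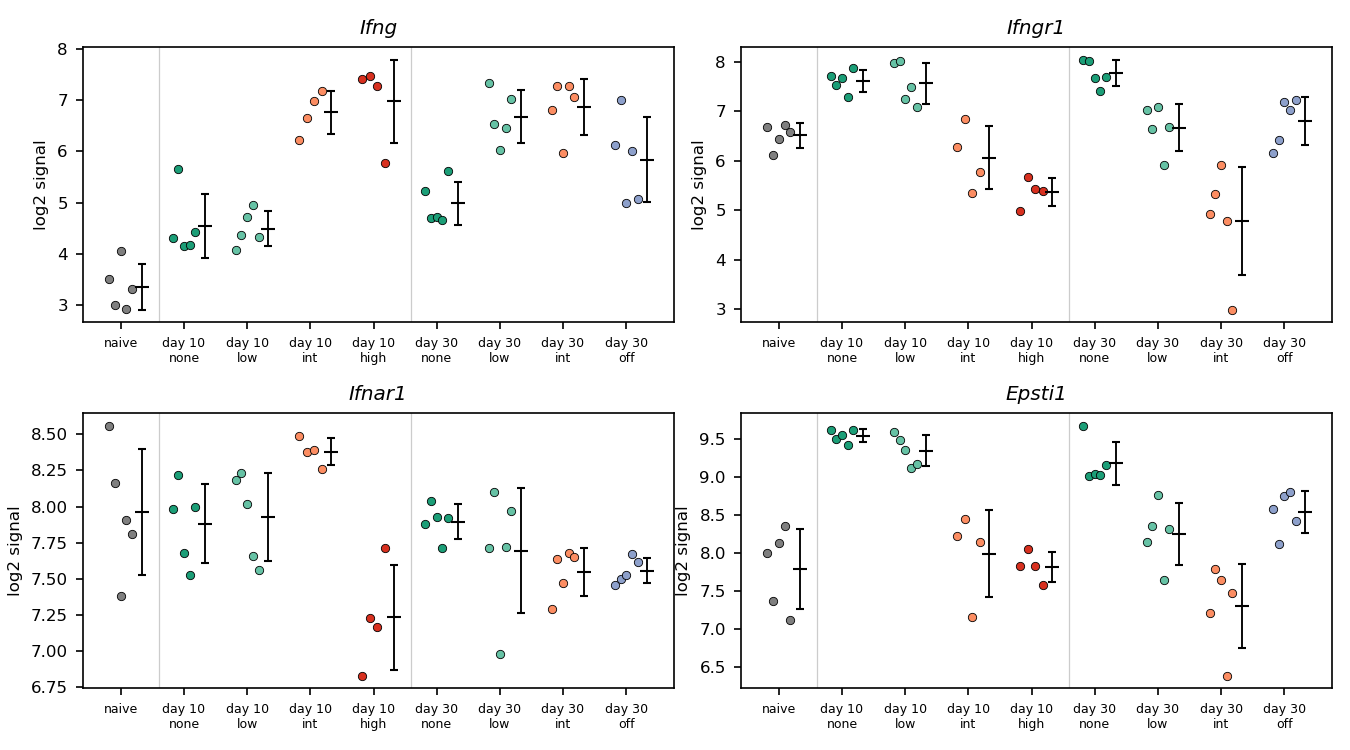
Log2 signal (vertical axes) of Ifng, the receptor chains Ifngr1 and Ifnar1, and Epsti1, an interferon-stimulated gene outside the 39, in each of the 43 arrays by group, with the group mean and SD beside the points. Ifng is above all day 10 none arrays in int and high, while Ifngr1 is below them, and Ifnar1 is lowest in high (group mean 7.24).

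Of the 7 measured kinases and factors of the pathway, 2 were higher in day 10 int than in none, where 0.784% of all genes were called higher. On day 30, 2 were higher in low than in none, beside 0.388% of all genes, and 3 in int, beside 1.42%. Irf8, a factor of the interferon regulatory family, was at 7.55, 7.74, 8.91 and 8.16 in day 10 int and at 5.52, 6.04, 6.44, 6.70 and 5.57 in none, a difference of 2.04 ± 0.31 (adjusted p = 4.30e-05). In day 30 low it was at 8.16 to 8.72, above all none arrays (5.58 to 7.26), by 1.89 ± 0.30 (adjusted p = 0.000149). Both calls held without any 1 array. Jak2 was higher in day 30 int than in none by 0.89 ± 0.14 (adjusted p = 5.35e-05). Jak1 stayed between group means of 9.68 and 10.04.

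Among 5 measured brakes on the signal, Socs3 was the main mover. It was at 5.72, 4.48, 3.98, 4.37 and 4.13 in naive cells and at 6.15, 6.54, 6.86, 5.57 and 6.40 in day 10 none, a difference of 1.77 ± 0.28 (adjusted p = 3.46e-05), and of 1.53 without the naive pair (adjusted p = 0.00398). On day 30 it was at 5.55, 5.14, 5.50, 5.58 and 5.29 in int and at 6.72, 6.41, 7.50, 7.49 and 6.93 in off, without overlap, a difference of 1.60 ± 0.28 (adjusted p = 0.00128). Of 8 measured sensors and adaptors outside the members, only Tlr7, a receptor for single-stranded RNA, was called, in 3 of the 12 comparisons. It was lower in day 10 none than in naive cells, with a difference of -1.23 (adjusted p = 0.00441), a call that held without any 1 array and without the naive pair (-1.23, adjusted p = 0.0251). Its mean in none, 3.33, lay at the level of the array medians (3.28 to 3.44), near the floor.

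A wider list of 69 interferon-stimulated genes outside the 39, of which 61 were measured, was counted in the same way. In day 10 none 8 of 61 were higher than in naive cells and none lower, beside 1.9% of all genes called higher, and 7 were higher without the naive pair. In day 30 none 8 were higher and 1 lower, beside 1.98% and 2.35%, and 5 were higher and none lower without the pair. Of all 22180 genes, 183 on day 10 and 265 on day 30 were called higher without the pair. In high against none 3 were higher and 11 lower, beside 2.77% and 2.48% of all genes. In day 30 int against none 3 were higher (Nlrc5, Ifi204 and Cxcl10) and 3 lower (Ifi213, Ifit1bl1 and Epsti1), beside 1.42% and 0.794%. In off against int 4 were higher and none lower, beside 0.266% called higher. Epsti1, an interferon-induced gene of this list, was at 9.62, 9.50, 9.56, 9.42 and 9.62 in day 10 none, 8.23, 8.45, 7.16 and 8.15 in int and 7.83, 8.06, 7.83 and 7.58 in high. The none arrays lay above all the others. Int minus none was -1.55 ± 0.24 (adjusted p = 5.18e-05), high minus none -1.72 ± 0.24 (adjusted p = 1.67e-06), and on day 30 int minus none was -1.88 ± 0.23 (adjusted p = 2.31e-07) and off minus int 1.23 ± 0.23 (adjusted p = 0.00206). All 4 held without any 1 array.

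Ifit1bl1, a near copy of Ifit1, was at 4.05, 6.10, 6.23 and 5.16 in high and at 7.96, 9.08, 8.61, 8.95 and 8.74 in day 10 none. The difference of high from none was -3.28 ± 0.36 (adjusted p = 6.66e-09), and day 30 int minus none was -1.97 ± 0.34 (adjusted p = 0.000172). Rnf213 (-1.35, adjusted p = 9.26e-06), Helz2 (-1.17, adjusted p = 0.000450), Nlrc5 (-1.16, adjusted p = 0.00299) and Sp100 (-0.72, adjusted p = 4.76e-06) were also lower in high than in none, without any 1 array. The 3 higher ones were Ifitm2, Ifi204 and Cxcl10. Cxcl10, a chemokine induced by interferon gamma, was higher than none on day 30 in low by 2.22 ± 0.43 (adjusted p = 0.00370) and in int by 2.38 ± 0.43 (adjusted p = 0.000393).

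Within groups the members varied together only in part. After each group's mean was taken off, the 595 pairs of members had a median Pearson correlation of 0.17 over the 43 arrays, from -0.32 to 0.70, and 23 pairs were over 0.5. The highest were Ifit1 with Oasl2 (0.70), Isg15 with Zbp1 (0.69) and Ifih1 with Eif2ak2 (0.66). Rtp4, a chaperone-like interferon-induced protein, followed the mean of the other members most closely (0.64), and Slfn8 did not (-0.02). Over all 43 arrays with group differences kept, the genes outside the list most like the member mean were Rnf213 (Pearson r 0.76), Phf11c (0.74), Ifit1bl1 (0.73), Iqgap2 (0.70), Zc3hav1 (0.69), Crim1 (0.69), Mctp2 (0.69), Daxx (0.68), Socs3 (0.68) and Dipk2a (0.68). The arrays share groups, sorts and amplification, so these values are descriptions.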

How the data were processed

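The values were deposited by the authors as 1 table of log2 signal per probe set for 43 arrays. The label protocols name the Ovation Pico WTA System V2 for amplification and the Encore Biotin Module for labelling. How the authors corrected background and normalized is not given in the sources used here. Values ran from 1.46 to 13.87, with array medians from 3.28 to 3.44. Precision is limited by the number of arrays. Of 41345 probe sets, 23521 had 1 gene symbol in the platform annotation, 1814 had several and 16010 none, and 23477 of the 23521 were found in RefSeq's table. The probe set with the highest mean stood for each of 1082 symbols with several, which left 22180 genes.

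limma 3.58.1 in R 4.3.3 was used to fit 1 model with a mean per group, with eBayes and a variance trend. P-values were adjusted over all 22180 genes (Benjamini-Hochberg) and called under 0.05. The procedure was tested on simulated data. No test was made of the mean over the members. Values of single arrays are given for members called most often and for each role. Genes outside the members were named where they are on the pathway or wider interferon-stimulated lists and were called, or are the 10 most correlated with the member mean. The members and lists were chosen with earlier results of these data known. Alternatives covered normalization, centring, the variance trend, array weights, the groups in the fit, a filter on low signal, the choice of probe set, a replicate block and leaving arrays out.

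Replicate numbers did not pair the arrays, so the main model has no block.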

Additional observations from a re-analysis of the deposited data

Results flagged for a closer look

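The 17 members with a call and the mean over all members were looked at in each of the 9 groups, and 9 of these 162 sets of arrays had 1 array far from the others, where chance gives about 1 in 20. All values are log2 signal. Ifit2 in day 10 high replicate 2 was at 3.05, with the other high arrays from 4.56 to 4.85, and the call of Ifit2 in high against none ended without that array. Eif2ak2 in day 10 int replicate 4 was at 6.73, with the others from 6.06 to 6.15, and its call in high against int held without it. Parp14 in naive replicate 5 was at 7.12, with the others from 7.53 to 7.58.

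Eif2ak2 in day 30 int replicate 3 was at 5.97, above the others at 5.33 to 5.45. Bst2 in day 30 int replicate 4 was at 7.45, below the others at 8.22 to 8.46. Samd9l in day 30 low replicate 5 was at 5.78, below 6.32 to 6.48. Trim30a in day 30 off replicate 1 was at 5.10, below 6.14 to 6.44. Slfn5 in day 10 none replicate 4 was at 5.48, below 6.33 to 6.64. Igtp in day 10 low replicate 5 was at 8.99, below 9.25 to 9.33.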

How the results depend on the processing

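Against naive cells on day 10, where 5 were called, 14 were called with array quality weights, 10 with only genes of a highest group mean of at least 5, 2 without naive replicates 3 and 4, and 3 to 12 without 1 array. All genes called moved too, from 733 of 22180 to 1071 with array weights and 337 without the naive pair. With the filter 859 of 7004 genes were called, and 31 of the 35 members were left to test. Shares of all genes were not computed for fits without 1 array. On day 30, where 6 were called, 2 were called with only the compared groups in the fit, 3 without naive replicates 3 and 4, 3 without those, day 10 none replicate 4 and day 10 high replicate 2, and 3 to 6 without 1 array. Under the first 3 of these settings 438, 594 and 695 of all genes were called, beside 961 in the main fit. With only the compared groups, high against none fell from 7 to 4 (5 to 12 without 1 array), high against int from 5 to 3 (4 to 5), day 30 int against none from 1 to 0 (0 to 1), off against int from 2 to 0 (1 to 2), and day 30 against day 10 none from 3 to 1 (1 to 4). In the same order, all genes called fell from 1165 to 836, 664 to 345, 491 to 292, 103 to 35 and 761 to 353. Day 30 against day 10 int, with 0 calls by limma and 4 members at an unadjusted p under 0.05, had 1 with quantile normalization, 2 with array weights, 2 with the filter, 1 without the naive pair, 1 without the 4 arrays together and 0 to 1 without 1 array. All genes called under the first 5 of these settings were 226, 335, 359 (of 7004), 174 and 262, beside 158 in the main fit. The change of the low effect between the days, with 0 calls and 2 at an unadjusted p under 0.05, had 1 (Slfn8) under quantile normalization, the compared groups alone, array weights, the filter, the replicate block and both omissions of several arrays, and 0 to 1 without 1 array. Under the settings that called Slfn8, 8 to 16 of all genes were called, beside 7 in the main fit. With only the compared groups in the fit, these calls ended: Oas2 (adjusted p = 0.0611) and Trim30a (0.0967) in day 10 none against naive, Ifih1 (0.227), Slfn1 (0.0602), Slfn5 (0.178) and Slfn8 (0.0641) in day 30 none against naive, Ifit2 (0.0823), Parp14 (0.216) and Slfn1 (0.0664) in high against none, Parp14 (0.0928) and Igtp (0.115) in high against int, Oas2 (0.0599) in day 30 int against none, Ifit1 (0.0866) and Oasl2 (0.136) in off against int, and Samd9l (0.102) and Slfn8 (0.0501) in day 30 against day 10 none.

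The replicate numbers did not pair the arrays: over 55 pairs the correlation of deviations ran from -0.138 to 0.117, with 2 over 0.1. With the replicate block, 5 calls ended: Ifih1 (adjusted p = 0.0620) and Slfn5 (0.0586) in day 30 none against naive, Ifit2 (0.0633) and Parp14 (0.0705) in high against none and Igtp (0.0668) in high against int. The first 4 also ended with each array centred on its median (0.0659, 0.0625, 0.0565 and 0.0666). Ifih1 (0.112), Slfn5 (0.0856) and Igtp (0.0831) ended with array weights, and Ifit2 (0.0510) without the variance trend. With the block, day 30 low against none had 2 calls in place of 1, Oas2 being added (adjusted p = 0.0470). There 127 of all genes were called, beside 145 in the main fit. The counts of day 10 low against none, day 10 int against none, off against none and the change of the int effect with day were the same under all 10 settings and without any 1 array. No called difference reversed. The difference of the member mean changed sign over 7 settings for day 30 against day 10 none (-0.13 to 0.03) and day 30 low against none (-0.02 to 0.07), and was 0.04 to 0.18 for day 10 low against none and 0.02 to 0.15 for off against none. Signals near the floor of the scale are compressed, which limits Mx1, Oasl1, Rsad2 and Gbp3, and Oas2 and Oasl2 in their low groups, such as day 30 int (group means 3.80 and 4.21).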
